A study of Sus scrofa with 8 samples.

Results

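Interferon gamma response and class I presentation genes were followed in pig skin, as 34 gene symbols compiled as a module. A symbol counted as measured when a row of the deposited count table carried it, with each Ensembl gene kept once. This held for 26 of the 34 symbols, out of 31907 genes in the table. The symbols GBP1, GBP4, GBP5, GBP6, GBP7, TAPBP, TAP2 and APOL6 were on no row and were dropped. All 26 measured genes passed the filter on low counts, as did 19862 genes in all.

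The tissue was skin of wild-type (WT) Yorkshire swine, from 2 animals called pig 13 and pig 14. In each pig 2 sites were injected intradermally (ID) with IL-15, 200 ng per site in a volume of 100 µl saline, and biopsied 3 h later, and 2 other sites were biopsied with no injection. This gave 4 injected and 4 control biopsies, read by RNA sequencing of total RNA after removal of ribosomal RNA, and the design text states that genes strongly induced by IL-15 were sought as readouts for an inhibitor of JAK1 and JAK3. There was no saline-only site, and the injected sites were numbered 12 and the controls 6 or 7, so IL-15, the injection itself and the site cannot be told apart. Biopsies of a pig are not separate animals, so the p-values below measure the spread between sites of these 2 pigs.

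Interferon gamma is released mainly by T cells and natural killer cells, and IL-15 is a cytokine that sustains and activates both. Interferon gamma binds a receptor of the chains IFNGR1 and IFNGR2, which signal through the kinases JAK1 and JAK2. Transcription factors such as IRF1 then switch on a broad set of target genes. Among these are the parts of the class I pathway: the immunoproteasome cuts proteins, the transporter TAP carries the peptides into the endoplasmic reticulum, ERAP1 and ERAP2 trim them, and chaperones load them onto a class I heavy chain paired with beta-2 microglobulin, for display to CD8 T cells.

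Total counts ran from 28471089 to 36070107 per biopsy, and the biological coefficient of variation was 19.8%. The 7 fibroblast markers summed to 19277 to 192677 CPM (read counts scaled to the library total) and the 7 basal keratinocyte markers to 6970 to 21706, so the defining genes of skin were present in every biopsy. The pig 13 control from site 7b stood apart, with the lowest fibroblast sum and with the highest sum of 8 neutrophil markers, 518 CPM against 56.9 to 157 in the other 7 biopsies. CPM values below are scaled by TMM, a correction for library composition, and levels are compared between genes only as CPM per kilobase of exon.

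The levels of the 26 genes spanned a wide range. Averaged over the 8 biopsies, SERPING1, the C1 inhibitor of complement, was highest at 136.3 CPM per kilobase. The chaperone calreticulin (CALR) followed at 76.9, the disulfide isomerase PDIA3 at 66.7 and the leucine aminopeptidase LAP3 at 53.3. B2M, the class I light chain, was at 27.8, WARS1, the tryptophanyl-tRNA synthetase, at 26.9 and TAP1 at 23.5. The lowest were PDCD1LG2 at 0.594, CD274 at 0.526, PSME1 at 0.459 and TAPBPL at 0.118 CPM per kilobase. Each of these gene models shares exon bases with another gene, from 15.3% for PDCD1LG2 to 96.4% for TAPBPL. The levels are over the full exon length, and how reads in shared exons were counted is not given. Their place at the bottom of the ranking is therefore uncertain.

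Injected sites did not differ detectably from control sites in these genes. Neither edgeR's quasi-likelihood test nor DESeq2 called any of the 26 genes in either direction at a Benjamini-Hochberg adjusted p under 0.05. Of all genes tested edgeR called 0.0352% higher and 0% lower and DESeq2 0.242% and 0.0503%, and the smallest adjusted p among the 26 in edgeR was 0.964. By sign, 13 genes lay above 0 and 13 below, with a median log2 fold change of -0.02 beside -0.01 over all genes tested. No gene had both injected biopsies above both controls in each pig, a pattern that 3.11% of all genes showed, and none had both below in each pig, which 2.83% showed. The 95% confidence interval of the log2 fold change lay within -1 and 1 for 20 of the 26 genes, so for those 20 a change of 1 on the log2 scale lay outside the interval.

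The only gene with an unadjusted p under 0.05 was ERAP2, the aminopeptidase that trims peptides beside ERAP1, where 4.54% of all genes tested reached that level. In pig 14 ERAP2 (ENSSSCG00000027860, chromosome 2, 103510440 to 103564441) was at 30.2 and 24.7 CPM in injected and 30.4 and 40.5 CPM in control biopsies. Pig 13 had 7.07 and 6.55 CPM injected and 10.2 and 6.83 CPM control. Each injected biopsy was thus below the controls of its own pig, except the one from site 12e of pig 13, which lay between them. The log2 fold change was -0.35 ± 0.15 (SE, 95% confidence interval -0.68 to -0.02, unadjusted p = 0.0408 and adjusted p = 0.964 by edgeR).

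PDCD1LG2, which encodes the checkpoint ligand PD-L2, had the next smallest p (ENSSSCG00000032561, chromosome 1, 216553101 to 216682607). In pig 14 it was at 7.33 and 5.48 CPM injected and 10.2 and 11.7 CPM control, without overlap. Pig 13 had 1.91 and 1.57 CPM injected and 1.91 and 1.51 CPM control, which overlap. The log2 fold change was -0.42 ± 0.21 over both pigs (unadjusted p = 0.0757), with -0.77 in pig 14 and 0.01 in pig 13.

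UBD and BATF2 had the largest values above 0, both from pig 13. UBD (ENSSSCG00000001252, chromosome 7, 22501130 to 22503094) encodes FAT10, a ubiquitin-like protein that marks proteins for the proteasome. Its CPM in pig 13 was 4.57 and 3.24 injected and 2.40 and 1.24 control, and in pig 14 it was 8.48 and 6.22 injected and 7.42 and 7.86 control. BATF2 (ENSSSCG00000023178, chromosome 2, 7180258 to 7188990), a transcription factor of the AP-1 type, was at 2.92 and 1.65 CPM injected and 1.09 and 0.695 control in pig 13. In pig 14 it was at 4.36 and 2.76 CPM injected and 3.39 and 4.20 control. For both genes the groups did not overlap in pig 13 and did overlap in pig 14. Over both pigs the log2 fold change was 0.48 ± 0.29 for UBD (unadjusted p = 0.125) and 0.57 ± 0.35 for BATF2 (unadjusted p = 0.131, 95% confidence interval -0.20 to 1.35).

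Among the other genes with small p, NLRC5, the transactivator of class I genes, had a log2 fold change of -0.17 ± 0.11 and the receptor chain IFNGR2 0.17 ± 0.14. The proteasome activator subunit PSME1 had 0.34 ± 0.30 and TAPBPL, the peptide editor TAPBPR, -0.51 ± 0.43. Reads of those last 2 are uncertain, because their gene models share most exon bases with neighbours. For TAPBPL this was 96.4% of the bases, shared with CD27 and VAMP1, and it had only 8 to 31 counts per biopsy. For PSME1 it was 61.3%, shared with FITM1, EMC9 and DCAF11. PSME2, its partner subunit, shared 85.2% with RNF31, and the remaining 23 of the 26 genes shared 49.3% or less. Whether the counting used strand, and how it treated reads in shared exons, are not given in the sources used here.

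**Figure D1:**
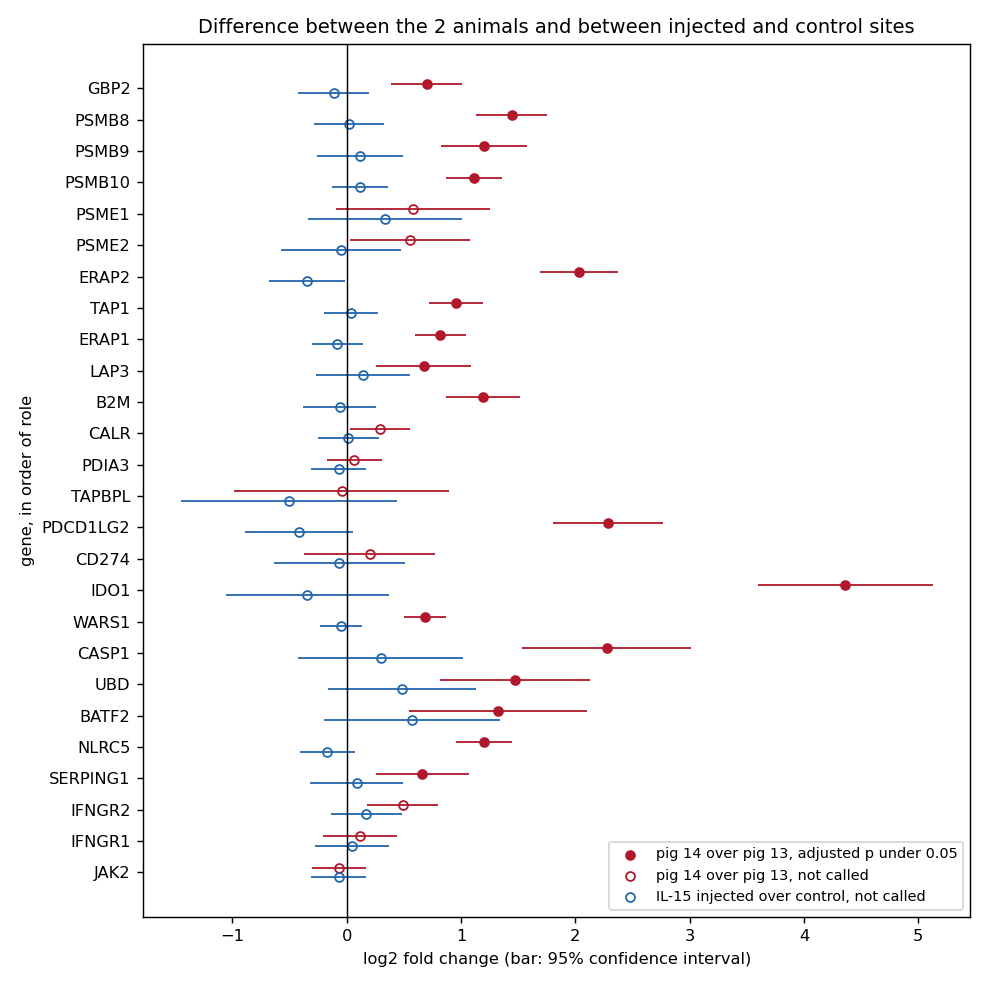
Log2 fold changes of the 26 genes with their 95% confidence intervals, on one axis, for pig 14 over pig 13 (red) and injected over control (blue). Filled points mark genes called by edgeR at an adjusted p under 0.05. Of the injected over control values 0 are called and they lie from -0.51 to 0.57, while 17 of the pig 14 over pig 13 values are called, up to 4.36 for IDO1.

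The same genes differed strongly between the 2 animals. Of the 26 genes, 17 were called higher in pig 14 than in pig 13 and 0 lower, with treatment in the model. Over all genes tested, 6.39% were called higher in pig 14 and 4.34% lower. DESeq2 called 18 of the 26 higher and 0 lower, beside 9.08% and 6.71% of all genes. The median log2 difference was 0.76 over the 26 genes and -0.002 over all genes tested. In 18 of the 26 genes all 4 biopsies of pig 14 lay above all 4 of pig 13, which 9.87% of all genes tested showed. Scaling by library size alone moved the median of all genes to -0.21 and that of the 26 to 0.55. Whole biopsies were sequenced, so more cells of a type and more RNA per cell cannot be told apart, and the comparison is between these 2 animals only.

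**Figure D2:**
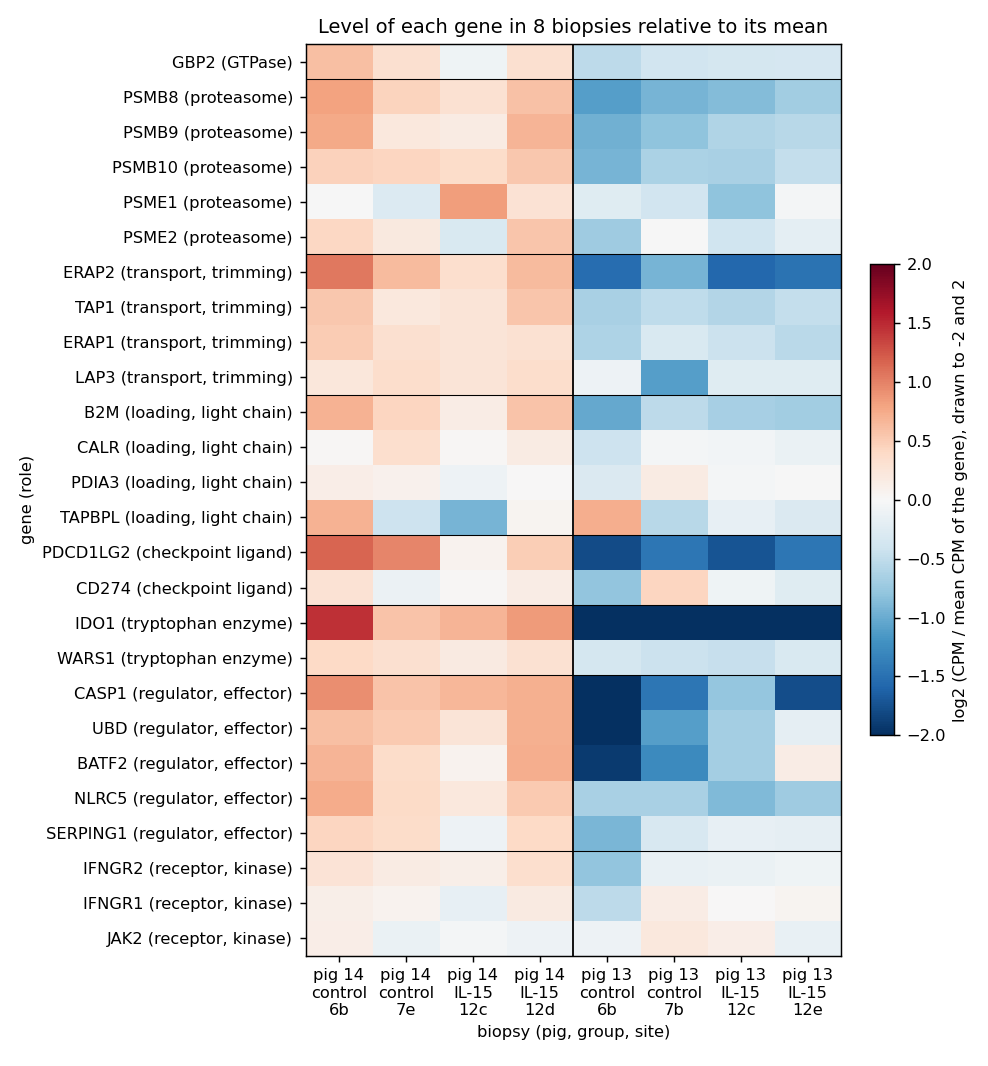
Heat map of the log2 ratio of each gene's CPM to its own mean over the 8 biopsies, clipped at -2 and 2, with genes ordered by role and biopsies by pig and group. Most genes of the class I machinery and the interferon effectors are above their mean in all 4 biopsies of pig 14 and below it in all 4 of pig 13. The pigs overlap for JAK2, IFNGR1, PDIA3, CD274, TAPBPL, PSME1, PSME2 and BATF2.

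The receptor and its kinase were among the genes not called. IFNGR1, the ligand-binding chain, was at 41.5 and 32.7 CPM injected and 38.5 and 39.9 control in pig 14, and at 38.0 and 36.7 injected and 40.8 and 25.6 control in pig 13. The pigs overlapped, and the log2 difference was 0.11 ± 0.15 (adjusted p = 0.669 by edgeR). JAK2 ran from 45.5 to 54.2 CPM in pig 14 and from 44.8 to 57.5 in pig 13 and had -0.07 ± 0.11 (adjusted p = 0.748). IFNGR2, the second chain, was at 68.8 and 59.0 CPM injected and 60.9 and 65.8 control in pig 14, against 51.7 and 50.1 injected and 49.3 and 31.5 control in pig 13. All 4 biopsies of pig 14 were the higher ones for IFNGR2, but its log2 difference of 0.49 ± 0.14 was just past the threshold in edgeR (adjusted p = 0.0512) and called in DESeq2 (adjusted p = 0.0247). Among the alternative settings it was called in 5, DESeq2 included, and not in 7, so its call depended on the processing.

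In the cutting step, the 3 inducible catalytic subunits of the proteasome were higher in pig 14. PSMB8 (chromosome 7, 25053132 to 25073046) was at 24.5 and 20.2 CPM injected and 22.2 and 28.3 control in pig 14, and at 10.02 and 8.97 injected and 8.55 and 7.56 control in pig 13. That is 23.8 ± 3.5 against 8.77 ± 1.02 CPM (SD, n = 4 biopsies a pig), or 2.72-fold (log2 1.44 ± 0.14, adjusted p = 0.000285). PSMB9 differed by 2.30-fold (log2 1.20 ± 0.17, adjusted p = 0.00238) and PSMB10 by 2.17-fold (log2 1.12 ± 0.11, adjusted p = 0.000314), and the pigs did not overlap in any of the 3. The activator subunits were not called, with 0.58 ± 0.30 for PSME1 and 0.55 ± 0.24 for PSME2. Of 16 tested subunits of the constitutive proteasome, edgeR called none between the pigs. DESeq2 called 1 lower in pig 14, beside 6.71% of all genes. The median of the 16 was -0.21, and 6 of the 16 had an unadjusted p under 0.05 in edgeR, all below 0. Of all 19862 genes tested, 5301 had such a p, 2442 of them below 0.

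The balance of inducible to constitutive subunits does not depend on library size, and was taken per biopsy as PSMB9 and PSMB10 over PSMB6 and PSMB7, per kilobase. It was 0.157 and 0.130 in injected and 0.116 and 0.161 in control biopsies of pig 14. In pig 13 it was 0.0611 and 0.0565 in injected and 0.0470 and 0.0538 in control biopsies. All values of pig 14 were above all values of pig 13, a log2 difference of 1.36 (two-sided exact permutation test within treatment, p = 0.0556, the smallest that 36 arrangements allow). Between injected and control biopsies the difference was 0.14 on the log2 scale (exact permutation test within pig, p = 0.333). For the single pair PSMB10 over PSMB7 both injected values exceeded both controls in each pig, by 0.20 on the log2 scale (exact p = 0.0556, again the smallest possible), and for PSMB9 over PSMB6 the difference was 0.10 (exact p = 0.611). PSMB7 shares 42.3% of its exon bases with NEK6, and PSMB10 49.3% with PSKH1 and CTRL.

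**Figure D3:**
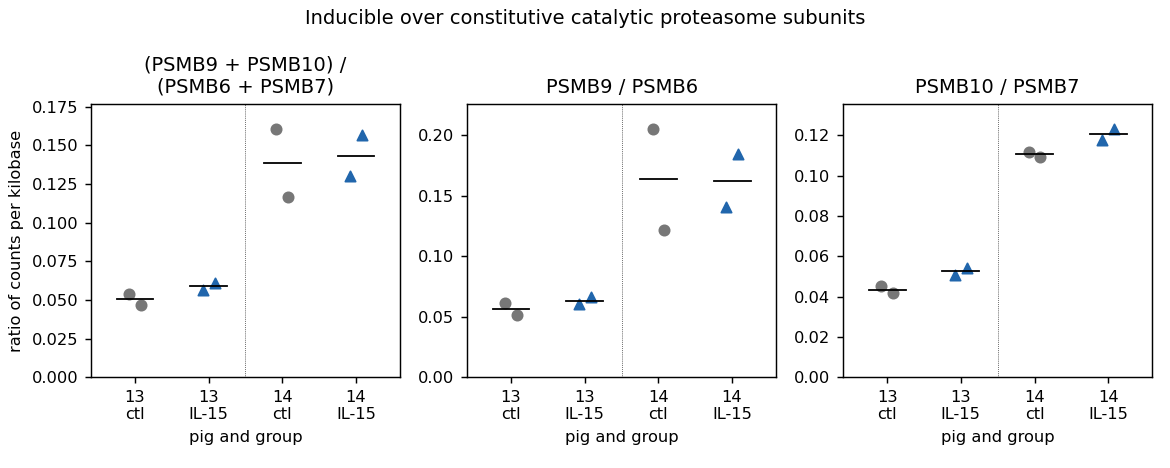
Ratio of inducible to constitutive proteasome subunits (PSMB9 and PSMB10 over PSMB6 and PSMB7, per kilobase) in each biopsy, by pig and group. The 4 biopsies of pig 14 sit between 0.116 and 0.161 and the 4 of pig 13 between 0.0470 and 0.0611.

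For transport and trimming, TAP1, ERAP1, ERAP2 and LAP3 were each called higher in pig 14. TAP1 (ENSSSCG00000025618, chromosome 7, 25062773 to 25071862), a subunit of the peptide transporter, was at 91.9 and 74.5 CPM injected and 72.4 and 91.1 control in pig 14. Pig 13 had 45.1 and 41.5 injected and 44.0 and 39.7 control, close to one another and all lower. The difference was 1.94-fold (log2 0.95 ± 0.11, adjusted p = 0.000621). ERAP2, whose values stand above, had one of the smallest p of the 26 genes, at 31.4 ± 6.60 against 7.67 ± 1.71 CPM (4.09-fold, log2 2.03 ± 0.15, adjusted p = 5.6e-05). ERAP1, its neighbour 101681 bases away, differed by 1.76-fold, at 40.4 ± 3.18 against 22.9 ± 2.12 CPM (log2 0.82 ± 0.10, adjusted p = 0.00102).

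LAP3, a cytosolic aminopeptidase, was at 193 and 181 CPM injected and 194 and 177 control in pig 14. In pig 13 it was at 128 in both injected biopsies and at 70.8 and 142 in the controls, so the control from site 7b was far below the others. Its log2 difference was 0.67 ± 0.19 with an adjusted p of 0.0481. The call ended on leaving out any 1 of the 4 injected biopsies or of the 2 pig 14 controls, with adjusted p from 0.0713 to 0.133, and held without either pig 13 control. It also ended with scaling by library size alone (adjusted p = 0.0881) and without the filter on low counts (adjusted p = 0.0566).

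At the loading step, B2M was higher in pig 14 and the general chaperones were not called. B2M (ENSSSCG00000004687, chromosome 1, 126835143 to 126981582) was at 332 and 248 CPM injected and 299.9 and 363 control in pig 14, and at 137 and 141 injected and 154 and 110.1 control in pig 13. Every pig 14 value exceeded every pig 13 value, by 2.28-fold (log2 1.19 ± 0.15, adjusted p = 0.00101). This gene model covers the span of both B2M copies of the RefSeq table. CALR was at 223 and 202 CPM injected and 250.1 and 202 control in pig 14, against 181 and 192 injected and 194 and 149.7 control in pig 13. The pigs did not overlap for CALR but the log2 difference was small, 0.29 ± 0.12 (adjusted p = 0.146). PDIA3 was at 132 and 123 CPM injected and 140.4 and 144 control in pig 14, and at 131 and 128 injected and 148 and 108 control in pig 13. Its pigs overlapped (log2 0.06 ± 0.11), as did those of TAPBPL (-0.05 ± 0.43).

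Other genes of the pathway, chosen after their values were seen, gave values beside these. Those described as TAP2 and APOL6 stand for symbols on no row, while the class I heavy chain genes stand for no symbol of the module. The gene described as TAP2 (ENSSSCG00000025593), the other transporter subunit, was called higher in pig 14 (log2 0.79 ± 0.12, adjusted p = 0.00359). A gene described as a class I heavy chain (ENSSSCG00000001229, chromosome 7, 22823841 to 22962547) was at 751 to 1101 CPM in pig 14 and 243 to 333 CPM in pig 13 (log2 1.64 ± 0.16, adjusted p = 0.000262). SLA-7, another class I gene, had 0.51 ± 0.15 and was called by DESeq2 (adjusted p = 0.0294) but not by edgeR (adjusted p = 0.0555), and SLA-8 had -0.21 ± 0.10 and was called by neither. A list of 11 tested genes of the class I heavy chains and their folding and regulation had a median of 0.02. Of these 11 edgeR called 2 higher and 0 lower, beside 6.39% and 4.34% of all genes. DESeq2 called 3 higher and 0 lower, beside 9.08% and 6.71%. The gene described as APOL6 (ENSSSCG00000000151), an apolipoprotein of the L family, was at 6.91 to 26.1 CPM in pig 14 and 2.35 to 11.6 CPM in pig 13, which overlap, and was not called by edgeR (log2 1.58 ± 0.62, adjusted p = 0.165) or DESeq2. Reads of near-identical class I genes can be split between copies, so these values are uncertain.

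Among the regulators and effectors, NLRC5, UBD, BATF2, CASP1 and SERPING1 were each called higher in pig 14. NLRC5 (ENSSSCG00000039751, chromosome 6, 18937665 to 19036820) was at 70.3 and 56.7 CPM injected and 63.9 and 81.8 control in pig 14, and at 30.0 and 26.5 injected and 31.2 and 31.1 control in pig 13. The pig 13 values lay close together and below every value of pig 14 (2.29-fold, log2 1.20 ± 0.11, adjusted p = 0.000207). CASP1, the inflammasome protease, was at 4.20 to 5.34 CPM in pig 14 and 0.393 to 1.65 CPM in pig 13 (4.83-fold, log2 2.27 ± 0.33, adjusted p = 0.00289). UBD differed by 2.77-fold (log2 1.47 ± 0.29, adjusted p = 0.0125). SERPING1 was at 366 and 258 CPM injected and 359 and 375 control in pig 14, and at 245 and 249 injected and 224 and 148 control in pig 13 (log2 0.66 ± 0.18, adjusted p = 0.0472).

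For BATF2 the pigs overlapped, since the pig 13 injected biopsy from site 12e exceeded the pig 14 injected one from site 12c, and the log2 difference was 1.32 ± 0.35 (adjusted p = 0.0384). The BATF2 call ended on leaving out any 1 of 6 biopsies, with adjusted p from 0.0779 to 0.103, and held only without the pig 14 injected biopsy from 12c or the pig 13 one from 12e. The SERPING1 call ended on leaving out any 1 of 7 biopsies, with adjusted p from 0.0596 to 0.132, and held only without the pig 14 injected biopsy from 12c. It also ended with scaling by library size alone (adjusted p = 0.0837).

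Guanylate binding proteins are interferon-induced GTPases that attack vacuoles holding pathogens. GBP2 (ENSSSCG00000006923, chromosome 4, 127370460 to 127451410) was at 21.6 and 16.3 CPM injected and 21.5 and 26.2 control in pig 14, and between 12.0 and 13.6 CPM in all of pig 13 (log2 0.70 ± 0.14, adjusted p = 0.0116). The gene described as GBP1 (ENSSSCG00000024973), also chosen after its values were seen, was at 97.2 to 173 CPM in pig 14 and 19.8 to 34.1 in pig 13 (log2 2.33 ± 0.22, adjusted p = 0.000671). A gene described as GBP6-like (ENSSSCG00000030801) was at 21.4 to 32.8 CPM in pig 14 and 3.69 to 6.34 in pig 13 (log2 2.40 ± 0.19). The GBP1 model carries more than 1 gene identifier of the RefSeq table and overlaps the span of GBP2, so reads of family members may be mixed.

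IDO1 showed the largest difference of the 26 genes between the animals. IDO1 (ENSSSCG00000007007, chromosome 17, 9245196 to 9260491) breaks down tryptophan and thereby restrains T cells. It was at 5.36 and 4.74 CPM injected and 4.42 and 8.13 control in pig 14, from 125 to 213 counts. In pig 13 it was at 0.131 and 0.318 CPM injected and 0.437 and 0.181 control, from 4 to 16 counts. The lowest value of pig 14 was thus far above the highest of pig 13, 20.6-fold on average (log2 4.36 ± 0.35, adjusted p = 7.35e-05). WARS1, which charges tRNA with tryptophan, also differed without overlap, at 89.9 ± 5.31 against 55.8 ± 2.60 CPM (1.61-fold, log2 0.69 ± 0.08, adjusted p = 0.000958).

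Of the checkpoint ligands, PDCD1LG2 was called between the pigs and CD274 was not. PDCD1LG2 was at 8.68 ± 2.79 CPM in pig 14 and 1.72 ± 0.215 in pig 13 (4.87-fold, log2 2.28 ± 0.22, adjusted p = 0.000262). CD274, which encodes PD-L1, was at 3.01 and 2.76 CPM injected and 2.51 and 3.32 control in pig 14, and at 2.30 and 2.55 injected and 3.66 and 1.57 control in pig 13. Its pigs overlapped (log2 0.20 ± 0.26, adjusted p = 0.678). The models of these adjacent genes overlap in span, and 26.05% of the exon bases of CD274 are shared with PDCD1LG2. Whether the log2 differences of these genes differ from each other was not tested.

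**Figure D4:**
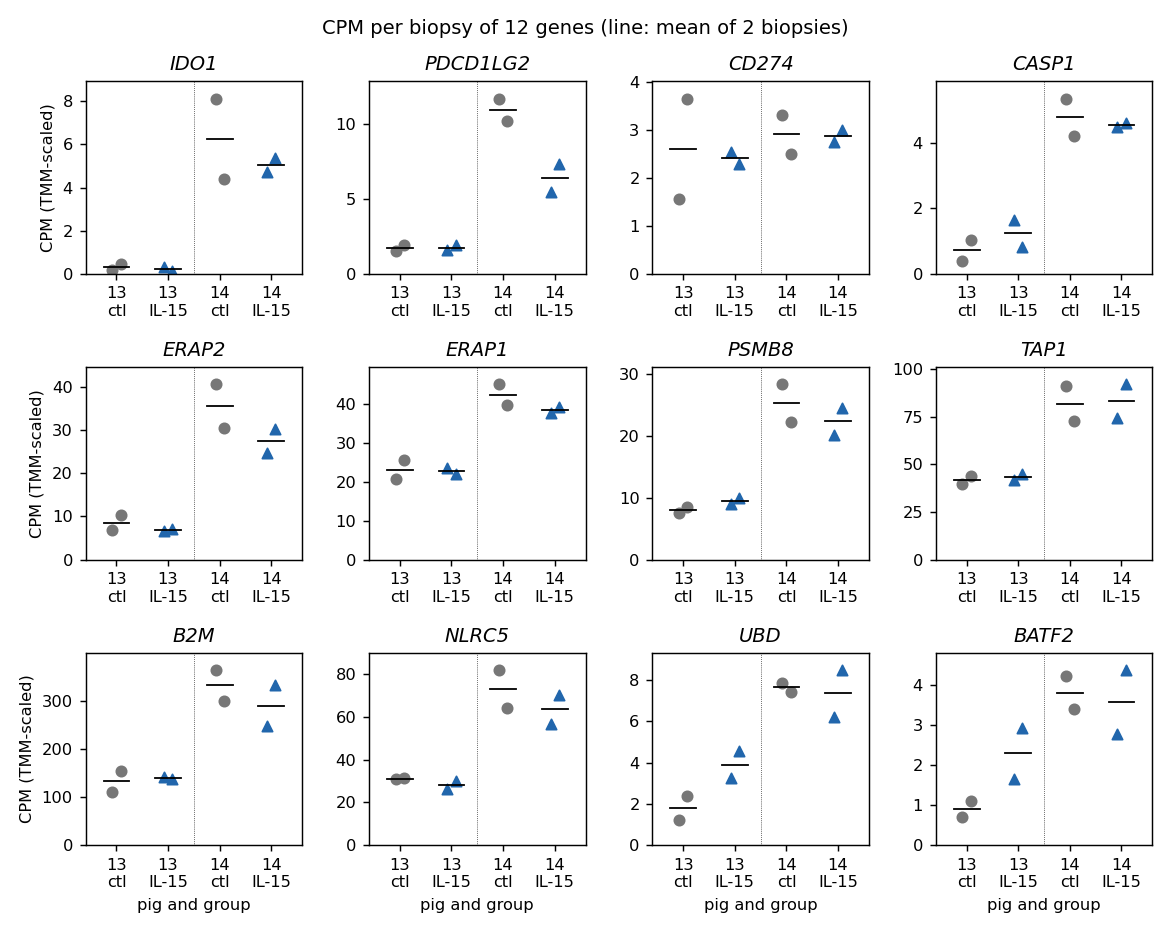
TMM-scaled CPM of 12 of the genes in each biopsy, by pig and group, with a line at the mean of 2 biopsies. IDO1, PDCD1LG2, CASP1 and ERAP2 are more than 4-fold higher in pig 14 than in pig 13, CD274 overlaps between the pigs, and the injected values of UBD and BATF2 lie above the controls in pig 13 only.

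The pig difference was present in both groups of biopsies. In a contrast added after the data were seen, 16 of the 26 genes were called higher in pig 14 among control biopsies alone, where 4.83% of all genes were, with a median of 0.94. Among injected biopsies alone 10 of the 26 were, where 1.19% of all genes were, with a median of 0.71. Both contrasts are on 2 biopsies a pig. IDO1 had 4.31 among controls and 4.42 among injected biopsies, NLRC5 1.22 and 1.17, and TAP1 0.97 and 0.94. UBD had 2.06 and 0.92, and BATF2 2.07 and 0.65.

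**Figure D5:**
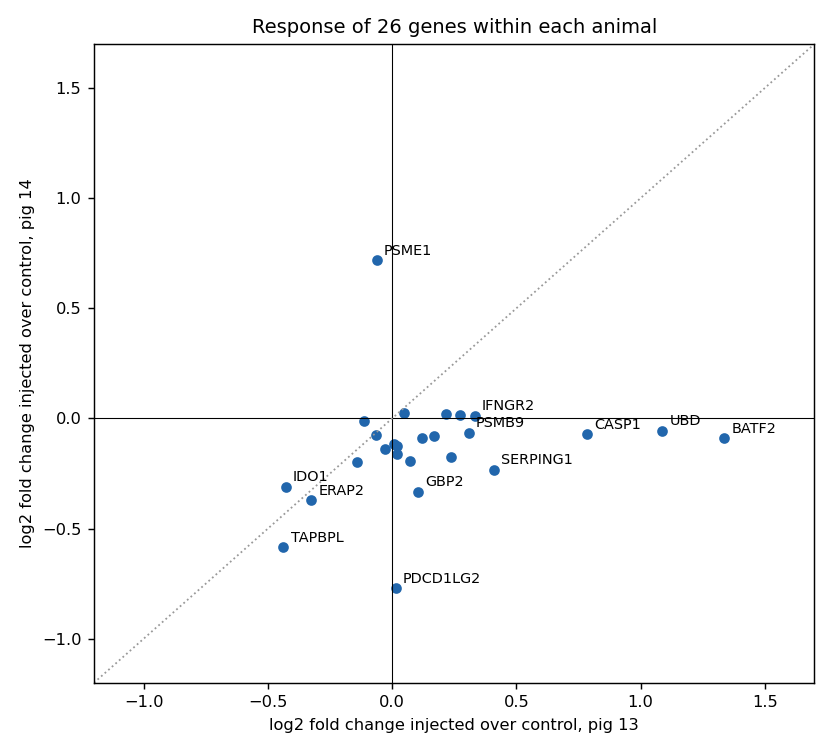
Log2 fold change of injected over control within pig 13 against that within pig 14 for each of the 26 genes. In pig 13, 18 of them lie above 0, led by BATF2 at 1.34 and UBD at 1.09, and in pig 14, 21 of them lie below 0.

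The response to injection was then compared between the animals with an interaction term. No gene was called, among the 26 (smallest adjusted p = 0.548) or among all genes tested (0% in either direction), and DESeq2 called none of the 26, beside 0.141% of all genes higher and 0.307% lower. At an unadjusted p under 0.05 there were 2 of the 26, beside 8.22% of all genes tested. These were BATF2, with a response lower in pig 14 than in pig 13 by 1.43 ± 0.55 on the log2 scale (unadjusted p = 0.0267), and UBD (unadjusted p = 0.0329). PDCD1LG2 was next (unadjusted p = 0.0563). Outside the 26, the gene described as GBP1 had -0.93 ± 0.28 (unadjusted p = 0.00761 by edgeR). Neither edgeR (adjusted p = 0.477) nor DESeq2 (adjusted p = 0.187) called it. The gene described as APOL6 had -2.24 ± 0.82 and was called by DESeq2 (adjusted p = 0.0418) but not by edgeR (adjusted p = 0.566). Those described as GBP6-like and TAP2 had -0.68 ± 0.31 and 0.13 ± 0.25, and neither tool called them. By sign, 23 of the 26 interaction values were below 0, with a median of -0.20 beside -0.003 over all genes tested. The LAP3 interaction value was -0.26 ± 0.38 with all biopsies and -0.84 without the pig 13 control from site 6b. The second value sets the pig 13 injected biopsies against site 7b alone. There LAP3 was at 70.8 CPM, against 142 at site 6b and 128 in both injected biopsies. With 1 control its spread in pig 13 cannot be judged, so no LAP3 result is drawn from it. Interaction calls over all genes also changed most without that biopsy, as given below.

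The signs depended on which control biopsy the injected ones were read against. The pig 13 control from site 6b was the lowest of the 8 biopsies for 18 of the 26 genes, as it was for 14.1% of all genes tested, and the pig 14 control from site 6b was the highest for 12 of the 26, as for 16.1% of all genes. Both injected biopsies of pig 13 lay above the control from site 6b in 18 of the 26 genes, as in 37.6% of all genes, and above the control from site 7b in 9, as in 37.5% of all genes. The control from 7b itself exceeded that from 6b in 22 of the 26, as in 50.6% of all genes. In pig 14 both injected biopsies lay below the control from site 6b in 16 of the 26, as in 37.5% of all genes. The other pig 14 control, from site 7e, lay between the injected biopsies by the median log2 ratio to each gene's mean. That median over the 26 was 0.33 at 7e and 0.53 at 6b, against 0.45 and 0.15 in the injected biopsies from 12d and 12c.

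The rest of the interferon gamma pathway was read from a list of 51 further symbols, of which 45 had a gene in the table and 43 were tested. Between the pigs edgeR called 23 of the 43 higher in pig 14 and 0 lower, beside 6.39% and 4.34% of all genes, with a median of 0.75. CXCL9, a chemokine that draws T cells, was at 33.5 and 30.1 CPM injected and 43.7 and 56.2 control in pig 14, against 2.00 and 1.27 injected and 1.09 and 1.09 control in pig 13 (29.5-fold, log2 4.88 ± 0.28). SOCS1, the feedback inhibitor of JAK kinases, had 0.62 ± 0.12 (adjusted p = 0.0105), and JAK1, not called, 0.08 ± 0.11 (adjusted p = 0.720).

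Between injected and control sites edgeR called 0 of the 43 and DESeq2 called 2 higher, IRF1 and the adhesion molecule ICAM1, beside 0.242% of all genes. In edgeR 6 of the 43 had an unadjusted p under 0.05, all above 0, beside 4.54% of all genes, and the median was -0.02. IRF1, a transcription factor of the interferon response, was at 83.2 and 61.7 CPM injected and 43.3 and 57.6 control in pig 14. In pig 13 it was at 51.0 and 30.0 injected and 13.2 and 12.8 control, so that the groups did not overlap within either pig (log2 1.07 ± 0.28, adjusted p = 0.895 by edgeR and 0.0118 by DESeq2). CXCL10, a chemokine related to CXCL9, was at 51.9 and 22.0 CPM injected and 16.1 and 19.7 control in pig 14, and at 17.1 and 12.3 injected and 0.656 and 1.03 control in pig 13. Its injected values were the higher ones within each pig (log2 2.31 ± 0.71, adjusted p = 0.964 by edgeR). Over all the lists read here the smallest unadjusted p were those of the endothelial markers ACKR1 (log2 0.56 ± 0.09) and CLDN5 (0.62 ± 0.15) and of ICAM1 (1.21 ± 0.27), and edgeR called none of these, while DESeq2 called ACKR1 and ICAM1.

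IFNG itself was too low to test. It had 4 and 4 counts in injected and 6 and 6 in control biopsies of pig 14, and 4 and 0 counts in injected and 0 and 0 in control biopsies of pig 13. A count of 0 allows up to 3 counts, or 0.0832 to 0.0990 CPM in those biopsies, by counting error only.

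Cell type markers also differed between the pigs. Of 13 tested T and natural killer cell markers, edgeR called 10 higher in pig 14, beside 6.39% of all genes, and the median was 1.88, with CD3E at 1.88 ± 0.28 and CD8A at 2.08 ± 0.31. Their summed level was 37.9 to 76.3 CPM in pig 14 and 19.2 to 26.6 CPM in pig 13, and CD3G, GZMA, KLRB1 and EOMES were listed at 0 in at least 1 biopsy. Of 11 monocyte, macrophage and dendritic cell markers edgeR called 4 higher and DESeq2 5, with summed levels of 460.7 to 749 CPM against 292 to 479 CPM, which overlap. Fibroblast markers summed to 136661 to 192677 CPM in pig 14 and 19277 to 109249 in pig 13, without overlap. All 7 lay above 0 with a median of 1.12, and edgeR called 1 higher and DESeq2 5, beside 6.39% and 9.08% of all genes. The 8 neutrophil markers had a median of -1.08, with 0 called by edgeR and 1 higher and 2 lower by DESeq2. Of the 7 basal keratinocyte markers edgeR called 1 lower and DESeq2 5, beside 4.34% and 6.71% of all genes, with a median of -0.67. Between injected and control sites neither tool called a marker of these lists. The T and natural killer cell sum was 21.1 to 66.4 CPM in injected and 19.2 to 76.3 in control biopsies. Of 9 endothelial markers DESeq2 called 1 higher at injected sites, ACKR1, beside 0.242% of all genes. Neither tool called any of 9 differentiated keratinocyte markers, all below 0, or of 5 adipocyte markers, all above 0. In edgeR 3 of the endothelial and 4 of the differentiated keratinocyte markers had an unadjusted p under 0.05, beside 4.54% of all genes. The part of any of these cells in the pig difference was not tested.

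Of the 26 genes 7 are on chromosome 7 in Sscrofa11.1. The spans of the models of TAP1, PSMB8 and PSMB9 overlap there, within the major histocompatibility complex. The models of CD274, PDCD1LG2 and JAK2 lie side by side on chromosome 1, with JAK2 55962 bases from CD274, and of these neighbours PDCD1LG2 was called between the pigs while CD274 and JAK2 were not.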

How the data were processed

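Per the file headers, the authors gave whole-number counts of reads for every Ensembl gene in the 8 biopsies. The deposited single files add CPM (count over the biopsy's total) and RPKM (the same per kilobase of gene), and both matched the counts and were used for nothing else. The build Sscrofa11.1 and the tools bcl2fastq, featureCounts 1.4.6-p5 (Subread) and STAR 2.5.1a are listed in the submitters' processing notes. One single file ended inside a row, so the series table was used, in which 425 genes on several rows had identical counts and were kept once. Symbols came from that table, then from a gene name table and the RefSeq gene table.

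Genes were filtered with filterByExpr (minimum count 10), scaled by TMM and tested with edgeR 4.0.16 in R 4.3.3 (quasi-likelihood F test, robust, pig and treatment in the model, or their interaction), adjusted by Benjamini-Hochberg over all 19862 genes and called under 0.05. Errors after log2 values are standard errors, and SDs are over 4 biopsies. Pig was the block because the labels name the animal. The deviations from group means correlated at 0.20 to 0.58 within a pig and at -0.53 to -0.25 across pigs. On simulated counts of 19862 genes for injected versus control, 74% of 100 genes changed by 1 on the log2 scale and 99% of 100 changed by 2 were called, with 14 false calls. The changed genes had a mean above 1 CPM and changed alike in both pigs. Genes at lower levels and responses in a single pig are therefore not covered by these rates. Alternatives were DESeq2 1.42.0, other scalings, no filter, no block and leaving out each biopsy. PSMB5 was on no row, so the planned proteasome ratio was taken without it and without PSMB8.

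The 26 genes, the other lists and the tests were chosen with earlier results of these data known. Values in each biopsy are given for genes with the smallest p in each comparison, the largest changes and the highest level per kilobase, for 7 pathway genes whatever their values, of which 1 is not reported here, and for the 3 smallest p of the other lists. Other genes whose biopsy values are printed were chosen after their values were seen.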

Additional observations from a re-analysis of the deposited data

Results flagged for a closer look

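In each group of 4 biopsies the gap between the most extreme biopsy and its nearest neighbour was set against the whole range of the group, for 26 genes in both groups. Of 52 groups tested, 3 held a biopsy far from the others. Chance gives about 1 in 20 where the 4 samples of a group are alike. Each group here holds 2 biopsies of each pig, so that rate need not apply. PSME2 was at 5.29 CPM in the pig 14 injected biopsy from site 12d, against 2.73 to 3.15 CPM in the other injected biopsies, and 85.2% of its exon bases are shared with RNF31. SERPING1 was at 366.3 CPM in that same biopsy, against 245 to 258 CPM in the other injected ones. The groups hold both pigs, and the pig 14 controls were at 359 and 375 CPM for SERPING1, so that value lay within the range of its own pig. IFNGR1 was at 25.6 CPM in the pig 13 control from site 6b, against 38.5 to 40.8 CPM in the other controls.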

How the results depend on the processing

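No alternative called any of the 26 genes between injected and control sites, and their median stayed between -0.09 and 0.09 on leaving out single biopsies. Over all genes, injected over control, DESeq2 called 48 higher and 10 lower, and leaving out 1 biopsy gave 3 to 19 higher and 0 to 1 lower. Without the replicate block, edgeR called 6 genes higher and 0 lower, the median of the 26 was -0.06, the proteasome ratio had p = 0.657 (permutation test), and PSMB8 reversed to -0.0645. The ratio's log2 difference ran from 0.03 to 0.26 on leaving out single biopsies.

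For the interaction over all genes, testing without the filter called 3 higher and 5 lower and DESeq2 28 and 61, and leaving out 1 biopsy gave 0 to 143 higher and 0 to 170 lower, with 0 to 1 of the 26 genes called lower. The highest counts came without the pig 13 control from site 6b, which left that pig 1 control, assumed to vary like the other groups.

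Between the pigs, the call of 14 genes (B2M, CASP1, ERAP1, ERAP2, GBP2, IDO1, NLRC5, PDCD1LG2, PSMB8, PSMB9, PSMB10, TAP1, UBD and WARS1) held under all 4 other scalings, filters or tools and without each biopsy in turn. Leaving out 1 biopsy gave 14 to 17 of the 26 called higher, and over all genes 723 to 1347 higher and 392 to 903 lower. Injected biopsies alone gave 10 of the 26, and 237 genes higher and 134 lower in all. Library size alone gave 3936 genes lower and DESeq2 1333, against 863, and the median of the 26 under library size alone was 0.55.

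Small values changed sign. Under library size alone the pig difference was -0.0920 for IFNGR1, -0.143 for PDIA3 and -0.0073 for CD274. On leaving out single biopsies it ran from -0.32 to 0.24 for TAPBPL, -0.0319 to 0.231 for IFNGR1 and -0.0385 to 0.139 for PDIA3. The injected over control value ran from -0.22 to 0.12 for PSME2, -0.10 to 0.16 for IFNGR1, -0.178 to 0.0506 for B2M, -0.173 to 0.00561 for PDIA3, -0.26 to 0.23 for CD274, -0.189 to 0.0108 for GBP2, -0.0865 to 0.254 for SERPING1, -0.0768 to 0.108 for CALR, -0.0493 to 0.336 for LAP3, -0.0192 to 0.112 for TAP1 and -0.0534 to 0.145 for PSMB8. The cause of these changes was not tested. Depth limits IDO1 in pig 13, TAPBPL and IFNG most, since they rest on few counts.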
